A study of Macaca fascicularis with 64 samples.

Results

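Glucocorticoid target genes and the muscle atrophy ligases were examined in tissues of SIRT6-deficient and wild-type cynomolgus monkeys. The 10 genes were chosen by name from the 28141 genes of the deposited tables, and all 10 were found in both tables. They are the glucocorticoid receptor NR3C1, the cortisol-producing enzyme HSD11B1, the hormone-responsive genes KLF9, FKBP5, TSC22D3, PER1, ZBTB16 and SGK1, and the ubiquitin ligases TRIM63 and FBXO32. RNA sequencing covered 56 newborn libraries, from 4 animals, the SIRT6-/- animals KO2 and KO3 and the wild types WT2 and WT3, and each gave 2 libraries of 7 tissues (brain, heart, kidney, liver, lung, muscle and thymus). A further 8 wild-type fetal libraries came from brain and muscle at gestation month 2 or 4, with 2 per tissue and month. The labels used here give neither the kind of mutation nor the hours or days after birth, and KO denotes the label SIRT6-/- throughout.

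Cortisol and related glucocorticoids enter cells and bind NR3C1, which is held in the cytoplasm by HSP90 and its co-chaperones. The bound receptor moves to the nucleus and switches on genes that carry its binding sites. HSD11B1 regenerates cortisol from inactive cortisone inside cells, and HSD11B2 carries out the opposite reaction. FKBP5, itself a product of receptor activity, binds HSP90 and lowers the receptor's affinity for hormone. In skeletal muscle glucocorticoids, together with FOXO factors, raise TRIM63 (MuRF1) and FBXO32 (atrogin-1), ligases that tag muscle proteins for the proteasome. Circulating cortisol rises before birth in primates, when lung, liver and muscle mature.

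Levels are FPKM, fragments scaled by transcript length and by mapped fragments, which the authors deposited, and an animal's level is the mean of its 2 libraries. Changes are on the log2(FPKM + 1) scale, with the standard error (SE) of limma, over 2 KO and 2 WT animals, and with p-values adjusted over all genes tested. A gene was tested where its mean was 1 FPKM or more, and called where the adjusted p was under 0.05. An exact two-sided permutation test of 2 animals against 2 cannot go below p = 0.333. SIRT6 transcript, which a small deletion or frameshift need not lower, was at 3.07 to 12.4 FPKM in KO and 6.18 to 12.4 in WT tissues, with adjusted p values from 0.545 to 0.941. Each tissue had the highest summed level of its own markers among the 7 tissues. The summed level of 4 lung markers was nevertheless 1564 to 1975 FPKM in KO lung against 18281 to 18793 in WT lung, and that of 5 kidney markers was 375 to 667 in KO kidney against 3427 to 3490 in WT kidney. KO2 stood apart from the other 3 animals in all 7 tissues by its HSP90AA1, the inducible HSP90, a gene singled out after its values were seen. Its level in KO2 was 2420 FPKM in muscle and 5522 in lung, while KO3, WT2 and WT3 had 77.8, 66.6 and 57.5 in muscle and 141, 154 and 161 in lung. The part of HSP90 in the results below was not tested, and values with and without KO2 are given where a call depends on it.

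**Figure D1:**
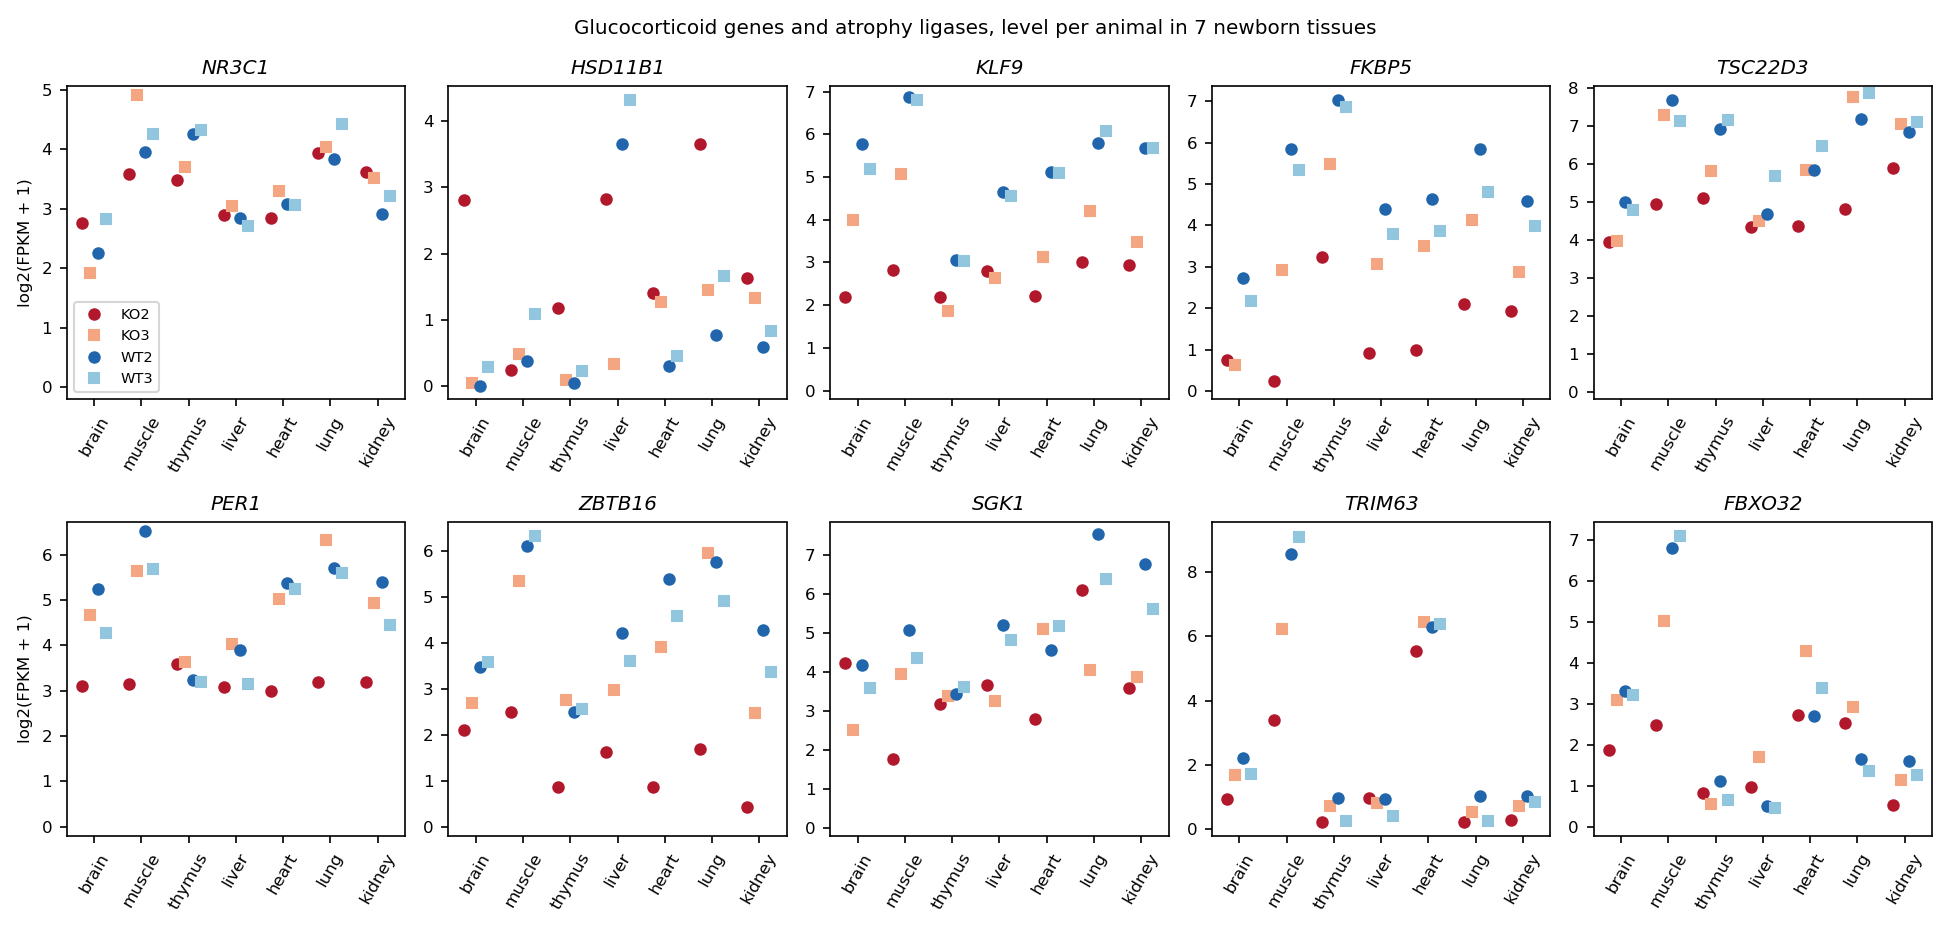
Level of each gene, as log2(FPKM + 1), in the 7 newborn tissues. Each point is 1 animal, the mean of its 2 libraries. KLF9 and FKBP5 lie lower in both KO animals than in both WT animals in all 7 tissues, while TRIM63 and FBXO32 are separated mainly in muscle.

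The receptor itself did not pass the test in any of the 7 tissues. NR3C1 in muscle was at 11 FPKM in KO2, 29.2 in KO3, 14.5 in WT2 and 18.2 in WT3, so that the WT values lay between the KO values (log2 change 0.15, SE 0.51, adjusted p = 0.955). In thymus, where WT levels were highest at 18.2 and 19.0, KO animals had 10.2 and 12, with all KO libraries below all WT libraries (adjusted p = 0.700). In kidney the order was the opposite, with 11.3 and 10.5 in KO against 6.53 and 8.31 in WT (log2 change 0.50, SE 0.30, adjusted p = 0.368). In liver, heart, lung and brain the KO and WT libraries overlapped. Over WT tissues the receptor varied 3.75-fold, less than any other of the 10 genes, and its levels in thymus, lung and muscle overlapped between animals.

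HSD11B1, which supplies active hormone inside liver cells, was a liver gene in WT animals. Liver had 11.6 FPKM in WT2 and 18.9 in WT3, against 6.10 in KO2 and 0.254 in KO3. All KO libraries lay below all WT libraries there, but the KO animals differed from each other more than KO2 differed from WT2, and the gene did not pass (log2 change −2.21 relative to the median of all genes, adjusted p = 0.151). KO2 was high in tissues where the gene was low otherwise. It had 5.97 FPKM in brain, where the other animals had 0.0313 (KO3), 0 (WT2) and 0.226 (WT3). It had 11.6 in lung against 1.72 in KO3, 0.700 in WT2 and 2.15 in WT3. The brain sample of KO2 also had a summed level of 5 fibroblast markers of 198 FPKM, against 25.1 to 48.0 in the other animals, and of 5 liver markers of 113, against 2.44 to 4.94, and their part was not tested. In heart the gene was at 1.65 and 1.41 in KO against 0.230 and 0.363 in WT, and in kidney at 2.10 and 1.52 against 0.496 and 0.770, with no overlap of libraries in either. Its opposing enzyme HSD11B2, which shields the mineralocorticoid receptor from cortisol in kidney and was named here after its values were seen, fell in kidney by 2.12 (SE 0.34, adjusted p = 0.0116). Its kidney levels were 206 and 130 FPKM in the KO animals, against 627 and 817. The call was lost without WT2 (adjusted p = 0.0843) or WT3 (0.120), and the kidney markers given above moved the same way, with their part not tested.

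KLF9, a zinc-finger repressor that the receptor induces in most tissues, was lower in KO than in WT in all 7 tissues, in every library. Muscle, its highest WT tissue, had 6.02 FPKM in KO2 and 32.6 in KO3 against 117 in WT2 and 110 in WT3. Lung had 7.08 and 17.5 against 54.5 and 66.1, kidney 6.73 and 10.2 against 50.4 and 49.9, and brain 3.58 and 15.0 against 54.1 and 35.7. Of these 4 tissues the WT animals were furthest apart in brain, and both KO animals stood below both WT animals in each. Heart had 3.62 and 7.77 against 33.5 and 33.4, liver 5.91 and 5.21 against 24.2 and 22.5, and thymus, the lowest WT tissue, 3.58 and 2.63 against 7.34 and 7.22. In single tissues 10.5% (heart) to 28.2% (brain) of all genes tested were lower in every KO library. The share lower in all 7 tissues was not counted, and the 7 tissues come from the same 4 animals. KLF9 fell in muscle by 2.90 (SE 0.55, adjusted p = 0.0050), in kidney by 2.46 (SE 0.30, adjusted p = 0.0041) and in heart by 2.43 (SE 0.43, adjusted p = 0.0493). It also fell in the mean of the 7 tissues, by 2.09 relative to the median of all genes (SE 0.33, adjusted p = 0.0141). Without KO2 the call was lost in muscle (adjusted p = 0.0882) and heart (0.161), and it was lost in heart without WT2 (0.0607), while kidney and the mean kept it whichever animal was left out. Markers of macrophages moved with the mean, where 3 of 7 were called lower, against 0.239% of all genes, with a median of −1.91. Their summed FPKM in liver was 30.0 (KO2) and 224 (KO3) against 931 and 792, in heart 11.3 and 31.8 against 135 and 81.3, and in kidney 8.06 and 37.0 against 55.3 and 47.4. In brain it was 102 and 1.46 against 159 and 159, while KO3 was above both WT animals in lung (24.7 and 376 against 123 and 116) and thymus (54.2 and 210 against 139 and 175). The part of these cells was not tested. In bulk tissue fewer cells of a type and less RNA per cell cannot be told apart.

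FKBP5 was likewise lower in every KO library of every tissue, with the share of all genes again not counted. Muscle had 0.188 FPKM in KO2 and 6.59 in KO3 against 56.3 in WT2 and 39.7 in WT3. In KO2 the gene was thus near the lower end of the scale, and KO3 lay between KO2 and WT. It fell in muscle by 4.01 (SE 0.61, adjusted p = 0.00044) and in kidney by 1.89 (SE 0.39, adjusted p = 0.0272), where the levels were 2.81 and 6.31 against 23.1 and 14.8. It fell in the mean of the 7 tissues by 2.26 relative to the median of all genes (SE 0.47, adjusted p = 0.0495). Thymus, with the highest WT level of FKBP5, had 8.45 and 43.7 against 130 and 115, and its T cell markers summed to 968 and 2129 FPKM against 2056 and 2750. Thymus did not pass (log2 change −2.38 relative to the median of all genes, adjusted p = 0.700), and their part was not tested. Brain was the lowest tissue, with 0.674 and 0.555 against 5.61 and 3.49. Heart had 0.976 and 10.3 against 24 and 13.6, lung 3.25 and 16.6 against 56.4 and 26.8, and liver 0.877 and 7.35 against 20.2 and 12.9. In these 3 tissues KO3 was nearer to the lower WT animal than KO2 was. The muscle call held whichever animal was left out. The kidney call was lost without KO2 (adjusted p = 0.0573), WT2 (0.215) or WT3 (0.0702), and the mean call without KO2 (0.147).

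**Figure D2:**
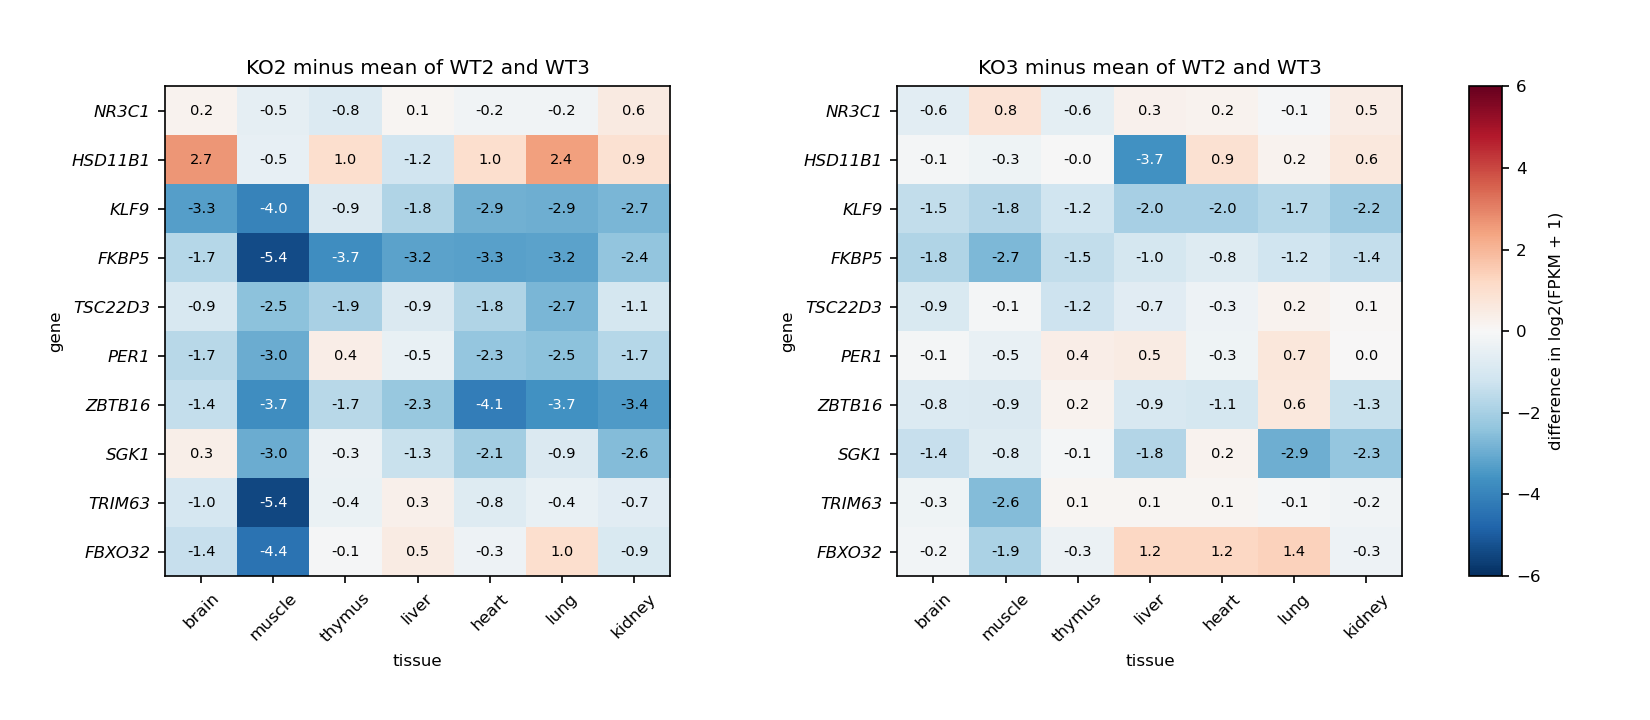
Difference in log2(FPKM + 1) of each KO animal from the mean of the WT animals, by gene and tissue. Blue marks lower and red higher values in KO. The differences of KO2 (left) are mostly larger than those of KO3 (right), and KLF9 and FKBP5 are below 0 in both animals throughout.

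None of the other 4 targets was below both WT animals in all 7 tissues of both KO animals. TSC22D3 (GILZ), an anti-inflammatory leucine-zipper protein, was at 29.9 FPKM in KO2 muscle, but KO3 with 157 lay between WT3 (141) and WT2 (204). Its lung showed the same split, with 27.1 in KO2, 215 in KO3, 145 in WT2 and 231 in WT3. In thymus and brain both KO animals were below both WT animals, with 33.3 and 55.2 against 120 and 143 in thymus and 14.4 and 14.6 against 30.8 and 26.7 in brain. PER1, a repressor of the circadian clock that glucocorticoids also induce, was at 7.89, 49.4, 92 and 50.2 in muscle (KO2, KO3, WT2, WT3), and KO3 was thus level with WT3. In KO2 it lay between 6.97 and 11.1 in all 7 tissues. WT levels of the same gene ran from 8.27 in thymus to 71.1 in muscle as tissue means. TSC22D3 and PER1 were called in no tissue, with muscle adjusted p values of 0.265 and 0.147.

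ZBTB16 (PLZF), a transcription factor strongly induced by glucocorticoids in many cell types, fell in muscle by 2.29 (SE 0.61, adjusted p = 0.0412). Its muscle levels were 4.66 (KO2) and 40.2 FPKM (KO3) against 68.2 in WT2 and 79.7 in WT3. The call was lost without KO2 (adjusted p = 0.333), WT2 (0.0718) or WT3 (0.177), and kept without KO3 (0.0048). It was kept in 1 of 9 alternatives, and was also lost with a pseudocount of 0.1, with the replicate block, without the level filter, with quantile normalisation and with 1 fit of all 7 tissues, over a range of 0.0048 to 0.770. In lung KO3 had 61.4, above both WT animals (53.7 and 29.2), while KO2 had 2.24. Kidney levels were 0.351 and 4.60 against 18.4 and 9.41, and heart levels 0.816 and 14.2 against 41.4 and 23.0, with adjusted p values of 0.0584 and 0.225. SGK1, a kinase that raises renal sodium uptake and responds to both gluco- and mineralocorticoids, fell in kidney by 2.46 (SE 0.39, adjusted p = 0.0109). Its kidney levels were 11.1 and 13.7 against 108 and 48.2, so that the WT animals differed by more than the KO animals, and the call was lost without WT2 (adjusted p = 0.0701). The sum of the kidney markers was lower in these KO kidneys as well, and 3 of the 5 markers were called lower, against 4.76% of all genes. Fibroblast markers went the other way in kidney, with sums of 552 (KO2), 549 (KO3), 293 (WT2) and 282 (WT3), and 0 of 5 were called. The lung marker sum was likewise lower in both KO lungs. The part of these cells in the kidney and lung values of SGK1 and the other targets was not tested. In lung, its highest WT tissue, SGK1 was at 67.6 and 15.6 against 185 and 83.0, the reverse order of the KO animals from most other targets. In muscle it was at 2.38 and 14.5 against 32.9 and 19.3 (log2 change −1.87, SE 0.58, adjusted p = 0.0981).

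TRIM63 and FBXO32 were muscle genes in WT newborns and fell in KO muscle. TRIM63, which targets thick-filament proteins, was at 375 FPKM in WT2 and 547 in WT3 muscle, against 9.44 in KO2 and 73.2 in KO3. It fell by 4.03 (SE 0.58, adjusted p = 0.00022), a call that held whichever animal was left out. FBXO32, the substrate receptor of an SCF ligase, was at 110 and 135 in WT against 4.64 and 31.6 in KO. It fell by 3.18 (SE 0.57, adjusted p = 0.0030), and the call was lost without KO2 (adjusted p = 0.0767). All KO libraries were below all WT libraries for both genes. The summed level of 5 muscle fibre markers in the same samples was 45246 FPKM in KO2 and 30173 in KO3, against 73933 in WT2 and 61279 in WT3, and their part was not tested. In this sum too both KO animals were below both WT animals. KO3 was below KO2 in the sum and above it in both ligases.

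**Figure D3:**
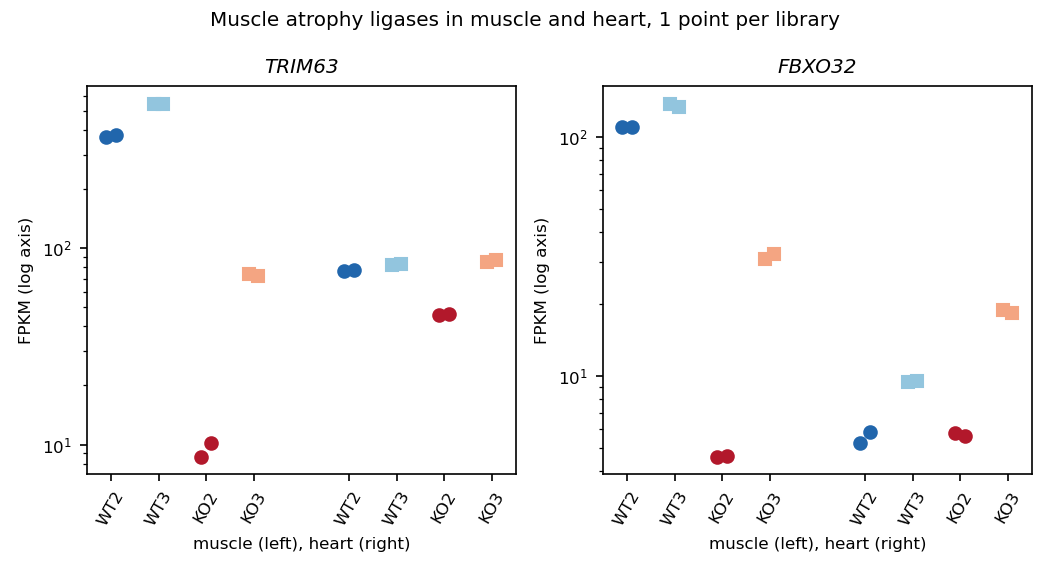
FPKM of TRIM63 and FBXO32 on a log axis in muscle and heart, 1 point per library. In muscle all KO libraries lie below all WT libraries, and in heart the KO and WT libraries overlap for both genes.

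Heart, the other striated muscle, did not show this separation. TRIM63 in heart was at 46.1 and 86.3 FPKM in the KO animals, against 77.0 and 82.6 (log2 change −0.33, SE 0.38, adjusted p = 0.909). FBXO32 in heart was at 5.72 and 18.7 in KO and 5.55 and 9.49 in WT (log2 change 0.47, SE 0.53, adjusted p = 0.905). KO3 was above both WT animals for both ligases. The difference between the muscle and heart changes was then tested within animals. It was −3.70 for TRIM63 (SE 0.62, adjusted p = 0.124) and −3.65 for FBXO32 (SE 0.44, adjusted p = 0.0543), and neither was called. For muscle against the mean of the other 6 tissues the differences were −3.76 (SE 0.68, adjusted p = 0.114) and −3.34 (SE 0.54, adjusted p = 0.0837). Neither was called. With 1 of the 4 animals left out, the differences ran from −4.95 to −2.57 for TRIM63 and from −4.26 to −2.43 for FBXO32. Each such fit has 1 animal alone in its group, so its p-values are not given. Under the other alternatives the adjusted p reached 0.460 for TRIM63 and 0.443 for FBXO32. The FKBP5 difference of muscle from the other 6 tissues was −1.92 (SE 0.39, adjusted p = 0.123), and that from heart was not called either (adjusted p = 0.125). The remaining genes tested had adjusted p values from 0.303 to 0.895 against the other 6 tissues and from 0.414 to 0.886 against heart. PER1 was the lowest of them against the other 6 tissues, at −1.12. In lung and liver FBXO32 was low in WT, and it was higher in all KO than in all WT libraries (lung 4.86 and 6.59 against 2.19 and 1.60 FPKM, liver 0.979 and 2.29 against 0.426 and 0.385), with adjusted p values of 0.670 and 0.424. TRIM63 had tissue means of 0.580 to 0.932 FPKM in WT thymus, lung, liver and kidney and was not tested there.

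Counted over tissues, 5 of the 9 genes tested in muscle were called, all lower in KO (KLF9, FKBP5, ZBTB16, TRIM63 and FBXO32), against 2.32% of all genes tested. In kidney 3 of 9 were called, all lower (KLF9, FKBP5 and SGK1), against 5.78% of all genes. In heart 1 of 9 was called, KLF9, against 0.18%, and in the mean of the 7 tissues 2 of 10, KLF9 and FKBP5, against 0.492%. None of the 10 genes was called by limma in brain, where 0% of all genes passed, in thymus (0.00772%), in liver (1.1%) or in lung (0%). At an unadjusted p under 0.05, 4 of 10 genes stood in brain, 3 of 7 in thymus, 5 of 9 in liver and 4 of 9 in lung, KLF9 and FKBP5 among them in each tissue. The shares of all genes at that level were 12.7%, 5.92%, 14.7% and 7.27%. For muscle against the other 6 tissues 0 of 9 genes were called, against 0.0579% of all genes, and 4 of 9 had an unadjusted p under 0.05, as did 12.1% of all genes. For muscle against heart 0 of 9 were called, against 0.0402%, and 3 of 9 had an unadjusted p under 0.05, as did 14.2% of all genes. No other tool was run. The muscle calls depended on the processing: without the level filter, or with quantile normalisation, none of the 5 genes passed. Over all alternatives the muscle adjusted p ran from 4.5e-08 to 0.549 for TRIM63, from 6.8e-05 to 0.536 for FKBP5, from 0.0011 to 0.586 for FBXO32, from 0.0026 to 0.576 for KLF9 and from 0.0048 to 0.770 for ZBTB16, with the direction kept in each. The kidney, heart and mean calls were also lost without the level filter, the heart call and the FKBP5 call in the mean with a pseudocount of 0.1, and the heart and mean calls with quantile normalisation.

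The libraries without overlap give a view that needs no model. All 4 KO libraries were below all 4 WT libraries for 6 of 9 genes in muscle, against 15.4% of all genes tested, and for 6 of 9 in liver, against 25%. The counts were 4 of 10 in brain (28.2% of all genes), 4 of 7 in thymus (19.8%), 4 of 9 in heart (10.5%), 3 of 9 in lung (20.6%) and 4 of 9 in kidney (23.7%). The share of these genes was highest in muscle and liver, and nearest to that of all genes in brain and lung. The median log2 change of the genes tested was −2.29 in muscle, where that of all genes was 0.00. It was −1.55 in liver (all genes −0.19), −1.25 in lung (−0.17), −1.05 in heart (−0.06), −0.86 in kidney (−0.04), −0.83 in brain (−0.20) and −0.72 in thymus (−0.21). In the mean of the 7 tissues it was −0.93 against −0.11. There SGK1 was at −1.24 (adjusted p = 0.0807), ZBTB16 at −1.64 (0.212), TSC22D3 at −0.94 (0.252), TRIM63 at −0.69 (0.328) and PER1 at −0.63 (0.499), relative to the median of all genes. FBXO32, NR3C1 and HSD11B1 were at −0.20, 0.08 and 0.41, with adjusted p values of 0.723 to 0.979.

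Levels in the tissues not yet given follow, with the 2 KO animals (KO2 first) before the 2 WT animals (WT2 first). None was called. TSC22D3 was at 19.1, 21.5, 24.5 and 50.5 FPKM in liver, 19.4, 56.7, 56.1 and 87.6 in heart, and 58.9, 133, 115 and 136 in kidney. PER1 was at 7.65, 24.3, 37.1 and 18.5 in brain, 11.1, 11.4, 8.39 and 8.15 in thymus, 7.47, 15.5, 14 and 7.92 in liver, 6.97, 31.8, 40.5 and 36.9 in heart, 8.13, 79.3, 51 and 47.7 in lung, and 8.19, 29.6, 41 and 20.9 in kidney. In thymus alone both KO animals had more PER1 than both WT animals, and in lung KO3 had the highest level. ZBTB16 was at 3.27, 5.49, 10.2 and 11 in brain, 0.821, 5.76, 4.65 and 4.90 in thymus, and 2.08, 6.90, 17.7 and 11.3 in liver. SGK1 was at 17.6, 4.67, 17.1 and 11 in brain, 8.11, 9.51, 9.82 and 11.3 in thymus, 11.7, 8.61, 35.7 and 27.4 in liver, and 5.90, 33.1, 22.7 and 35 in heart. Both KO animals were thus below both WT animals for ZBTB16 in brain and liver and for SGK1 in thymus and liver, and KO2 had the highest SGK1 in brain. TRIM63 in brain was at 0.915, 2.20, 3.60 and 2.27. FBXO32 was at 2.71, 7.54, 8.99 and 8.32 in brain, 0.452, 1.21, 2.046 and 1.40 in kidney, and 0.775, 0.484, 1.19 and 0.596 in thymus, where it was too low to test. Both ligases were lowest in KO2 in brain, and FBXO32 in kidney too. NR3C1 was at 5.82, 2.81, 3.78 and 6.12 in brain, 6.42, 7.26, 6.18 and 5.56 in liver, 6.198, 8.86, 7.51 and 7.40 in heart, and 14.3, 15.6, 13.3 and 20.5 in lung. HSD11B1, too low to test in either, was at 0.178, 0.401, 0.293 and 1.12 in muscle and 1.26, 0.0697, 0.0351 and 0.170 in thymus.

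The 2 KO animals contributed unequally. In muscle the median difference from WT over the 9 genes was −3.72 in KO2 and −0.86 in KO3, where the medians of all genes were −0.26 and 0.23. In lung it was −2.46 in KO2 and 0.22 in KO3, and in heart −2.08 and −0.27. In kidney it was −1.72 and −0.30 (all genes −0.18 and 0.07). Brain showed less of a gap, with −1.21 and −0.73 (all genes −0.20 and −0.17). So did liver, with −1.15 and −0.95 (all genes −0.39 and −0.02), and thymus, with −0.86 and −0.59 (all genes −0.43 and 0.00). In liver and thymus the medians of all genes were further apart than those of these genes. KLF9 and FKBP5 were below both WT animals in all 7 tissues in each of KO2 and KO3. ZBTB16 was below both in 7 tissues in KO2 and 5 in KO3, TSC22D3 in 7 and 3, and PER1 in 6 and 2. SGK1 was below both in 6 tissues in each.

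Muscle samples also differed in markers of other cell types. The summed level of 7 macrophage markers was 1.64 FPKM in KO2 and 26.3 in KO3 against 73.0 in WT2 and 40.8 in WT3. That of 6 neutrophil markers was 9.49 and 21.0 against 83.2 and 176. The sum of 5 erythroid markers was 110 and 204 against 1077 and 1111, but the median log2 change of the 5 was 0.57, with HBZ called higher and HBB lower, so that the sum does not stand for the list. The 7 adipocyte markers were at 68 and 409 against 261 and 231. All members of these 4 lists were above 0 in muscle. White cells and fat express several of the glucocorticoid targets, and the part of these cells in the muscle results was not tested.

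Other glucocorticoid-induced genes were lower in KO muscle as well. Of 27 tested genes of a list of 32 that leaves out the 10 described above, 9 fell and 0 rose in muscle, with a median of −1.34. Of all genes tested in muscle 1.58% fell and 0.745% rose. PDK4, the kinase that blocks pyruvate oxidation, fell by 5.66, from 634 FPKM in WT2 and 730 in WT3 to 3.98 in KO2 and 35.7 in KO3 (SE 0.59, adjusted p = 1.5e-06). GLUL, glutamine synthetase, fell by 3.84, from 1653 and 1137 in WT to 44.8 and 199 in KO (SE 0.49, adjusted p = 4.0e-05). Both fell in the mean of the 7 tissues too, PDK4 by 1.98 (adjusted p = 0.0153) and GLUL by 1.40 (adjusted p = 0.0482), relative to the median of all genes. Without KO2 neither passed in the mean (adjusted p = 0.0538 and 0.168), and GLUL was also lost there without WT2 (0.134). CEBPD, a transcription factor of acute responses, fell in muscle by 2.66 (adjusted p = 0.00084), from 290 and 275 in WT to 33.1 and 58.2 in KO. FOXO1, the transcription factor upstream of both ligases, fell by 2.74 (adjusted p = 0.0035), from 40.1 and 50.0 to 3.55 and 9.42. The FOXO1 call was lost without KO2 or WT3, at log2 changes of −2.14 and −2.58, and fewer of the list's genes were called without KO2. In kidney 8 of 29 fell and 0 rose, in liver 3 of 30 and 0, in heart 1 of 26 and 0, and in brain, thymus and lung none was called. Of all genes tested 4.76% fell in kidney, 0.836% in liver and 0.0734% in heart.

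Among 30 genes of muscle atrophy and proteolysis tested in muscle, 3 fell, against 1.58% of all genes, and 0 rose. These were FOXO1, the cell-cycle inhibitor CDKN1A (9.29 and 8.33 FPKM against 35.5 and 65.0, log2 change −2.32, adjusted p = 0.0078) and the mTORC1 inhibitor DDIT4 (9.79 and 116 against 268 and 318, log2 change −3.04, adjusted p = 0.0097). All 3 also stand in the list of glucocorticoid-induced genes, and none was called without KO2. The list's median in muscle was −0.73 beside −4.03 for TRIM63 and −3.18 for FBXO32. In kidney 3 of 28 atrophy genes fell, against 4.76% of all genes, and 0 rose, and in the other tissues none was called. Of 15 genes of glucocorticoid signalling tested in muscle, 2 rose, against 0.745% of all genes, and 0 fell. The 2 were the chaperone HSP90AB1 and its partner FKBP4. HSP90AB1 was at 844 and 251 FPKM against 109 and 146 (log2 change 1.86, adjusted p = 0.0286), and FKBP4 at 336 and 36.5 against 13.2 and 25.5 (2.54, adjusted p = 0.0321). Neither was called without KO2 (adjusted p = 0.291 and 0.392) or without WT2 (0.0894 and 0.0888). In kidney 3 of 18 signalling genes fell, HSD11B2 among them, against 4.76% of all genes, and 0 rose. Of 18 circadian clock genes tested in muscle, 0 fell and 1 rose, against 0.745% of all genes that rose. The clock gene that rose was BHLHE40, at 103 and 131 against 30.2 and 25.4 (log2 change 2.03, adjusted p = 0.0112). Its call was lost without KO2, WT2 or WT3, at log2 changes of 2.20, 2.15 and 1.91. These lists were chosen with earlier results of these data known, so their counts are descriptions.

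Across the 28 values of 4 animals in 7 tissues, each centred on its tissue mean, the targets varied together. Pearson's r was 0.89 between FKBP5 and ZBTB16, 0.87 between PER1 and ZBTB16, 0.85 between KLF9 and FKBP5, and 0.87 between TRIM63 and FBXO32. The receptor had low values with all others, from 0.03 with KLF9 to 0.42 with TSC22D3, and HSD11B1 ran from −0.51 with PER1 to 0.10 with SGK1. These are descriptions with no p, since the points share 4 animals and the same libraries. Among 8689 genes with a mean of 5 FPKM or more, those most like FKBP5 were SORT1 (0.95), DNAJB12 (0.94), VAMP7 (0.93), RBM3 (0.93) and CLPX (0.92). Those most like KLF9 were PGAP3, MMGT1, SORT1, ANXA7 and APOLD1, with r from 0.88 to 0.89. For TRIM63 they were FBXO32 (0.87), CHAC1, MYLK2, GPR157 and ZFAND5 (0.85 to 0.87), and for NR3C1 GABPA (0.81), PAPD4 (0.79), MKLN1, U2SURP and AIF1L (0.73 each). FBXO32 was the closest of the 8689 genes to TRIM63.

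**Figure D4:**
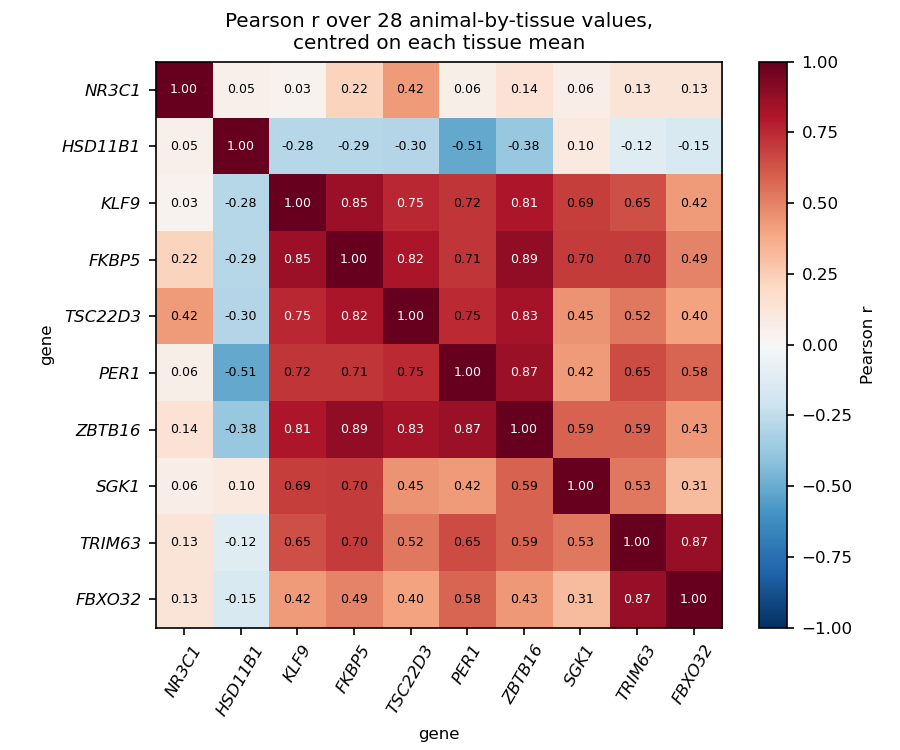
Pearson's r between the 10 genes over 28 animal-by-tissue values of log2(FPKM + 1), each centred on its tissue mean. The 6 targets from KLF9 to SGK1 have values of 0.42 to 0.89 with each other. TRIM63 and FBXO32 pair at 0.87 and have 0.31 to 0.70 with the 6 targets. NR3C1 reaches at most 0.42 with any gene, and HSD11B1 at most 0.10.

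WT tissues ordered the genes differently. FKBP5 was highest in thymus (122 FPKM as the mean of WT2 and WT3), followed by muscle (48.0) and lung (41.6), which overlapped, and lowest in brain (4.55). KLF9 was highest in muscle (114), with lung, kidney and brain (60.3, 50.1 and 44.9) overlapping next, and lowest in thymus (7.28). The same thymus thus held the highest FKBP5 and the lowest KLF9. TSC22D3 was highest in lung and muscle (188 and 173), thymus and kidney (132 and 125), neighbours that overlapped. ZBTB16 ran from 74.0 in muscle to 4.78 in thymus, and SGK1 from 134 in lung and 78.0 in kidney, which overlapped, to 10.6 in thymus. TRIM63 had the widest range, 794-fold from muscle (461) to thymus (0.580), with heart (79.8) second and brain (2.94) next, and FBXO32 ranged 302-fold from muscle (123) to liver (0.406).

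The fetal libraries placed these levels along development. In wild-type fetal muscle 6 of 8 tested genes rose between month 2 and month 4, and 0 fell, where 37.9% of all genes were called. Markers of other cells moved over the same time: 5 of 5 tested adipocyte markers rose (sums of 21.3 and 20.1, then 114 and 122 FPKM) and 3 of 5 fibroblast markers rose, while 4 of 6 macrophage markers (sums of 123 and 127, then 48.5 and 50.6) and 4 of 4 liver markers fell. The sum of the heart markers went from 329 and 323 to 7.74 and 10.1, with 1 of 3 tested called lower, and 3 of 5 muscle markers rose. The part of these cells was not tested. KLF9 rose from 0.698 and 0.670 FPKM to 5.89 and 5.03 (log2 change 1.94, SE 0.23, adjusted p = 0.00025). ZBTB16 rose from 0.321 and 0.571 to 2.92 and 3.51 (1.55, SE 0.25, adjusted p = 0.0013), and FBXO32 from 0.783 and 0.796 to 2.80 and 2.64 (1.06, SE 0.23, adjusted p = 0.0067). TSC22D3 rose from 21.6 and 19.3 to 46.5 and 48.1, SGK1 from 6.61 and 7.33 to 16 and 20.2, and NR3C1 from 5.62 and 4.88 to 12.8 and 9.16, with log2 changes of 1.17, 1.25 and 0.92. The months did not overlap for any of these 6 genes, nor for PER1, which was not called. The share of all genes without overlap between the months was not counted. The FBXO32 call was lost without either month 2 library (adjusted p = 0.0761 and 0.0762), and that of NR3C1 without the second (0.105). Without the level filter TSC22D3 alone of the 6 was called (adjusted p = 0.0481), at the same log2 changes. PER1 went the other way, from 11.9 and 11.3 to 7.85 and 7.98 (−0.50, SE 0.18, adjusted p = 0.0552). TRIM63 had 12.8 and 12.6 at month 2 and 10 and 17.3 at month 4 (0.05, SE 0.24, adjusted p = 0.883). FKBP5 and HSD11B1 were too low to test, and FKBP5 was at 0.231 and 0.287, then 0.398 and 0.0795. The median of the tested genes was 1.12, where that of all genes was 0.16. Of the glucocorticoid-induced list 12 of 23 tested genes rose and 3 fell, and of the clock list 12 of 16 rose and 1 fell. Of all genes tested 22.3% rose and 15.7% fell. The labels do not say that the libraries are of separate fetuses, so the spread behind these p-values is between libraries and can be technical.

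In fetal brain 0 of 8 tested genes were called by limma, against 4.01% of all genes, and 4 of 8 had an unadjusted p under 0.05, as did 19.1% of all genes. KLF9 had 4.85 and 5.91 FPKM at month 2 and 9.61 and 7.50 at month 4 (log2 change 0.58, SE 0.23, adjusted p = 0.213), and PER1 6.37 and 6.50, then 11 and 11.6 (0.72, SE 0.21, adjusted p = 0.0923). FBXO32 had 1.31 and 0.849, then 2.80 and 3.02 (0.92, SE 0.25, adjusted p = 0.0815). None of these 3 genes was called. The months did not overlap for them, nor for NR3C1, SGK1 and TRIM63, given next. With 2 libraries against 2, an exact two-sided permutation test of such a separation cannot go below p = 0.333. The share of all genes without overlap was not counted. NR3C1 had 1.17 and 2.36, then 4.11 and 2.70 (0.69, SE 0.30, adjusted p = 0.250). SGK1 had 6.75 and 9.34, then 12.5 and 10.5, and TRIM63 0.992 and 1.10, then 1.55 and 1.60 (adjusted p = 0.309 and 0.512). TSC22D3 (21.6 and 30.9, then 22.9 and 26) and ZBTB16 (3.18 and 3.77, then 7.32 and 3.72) overlapped between the months, with adjusted p values of 0.880 and 0.418. FKBP5 (0.577 and 0.585, then 0.666 and 0.483) and HSD11B1 (0 and 0.421, then 0.306 and 0) were too low to test. The median of the tested genes was 0.53, where that of all genes was 0.06.

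**Figure D5:**
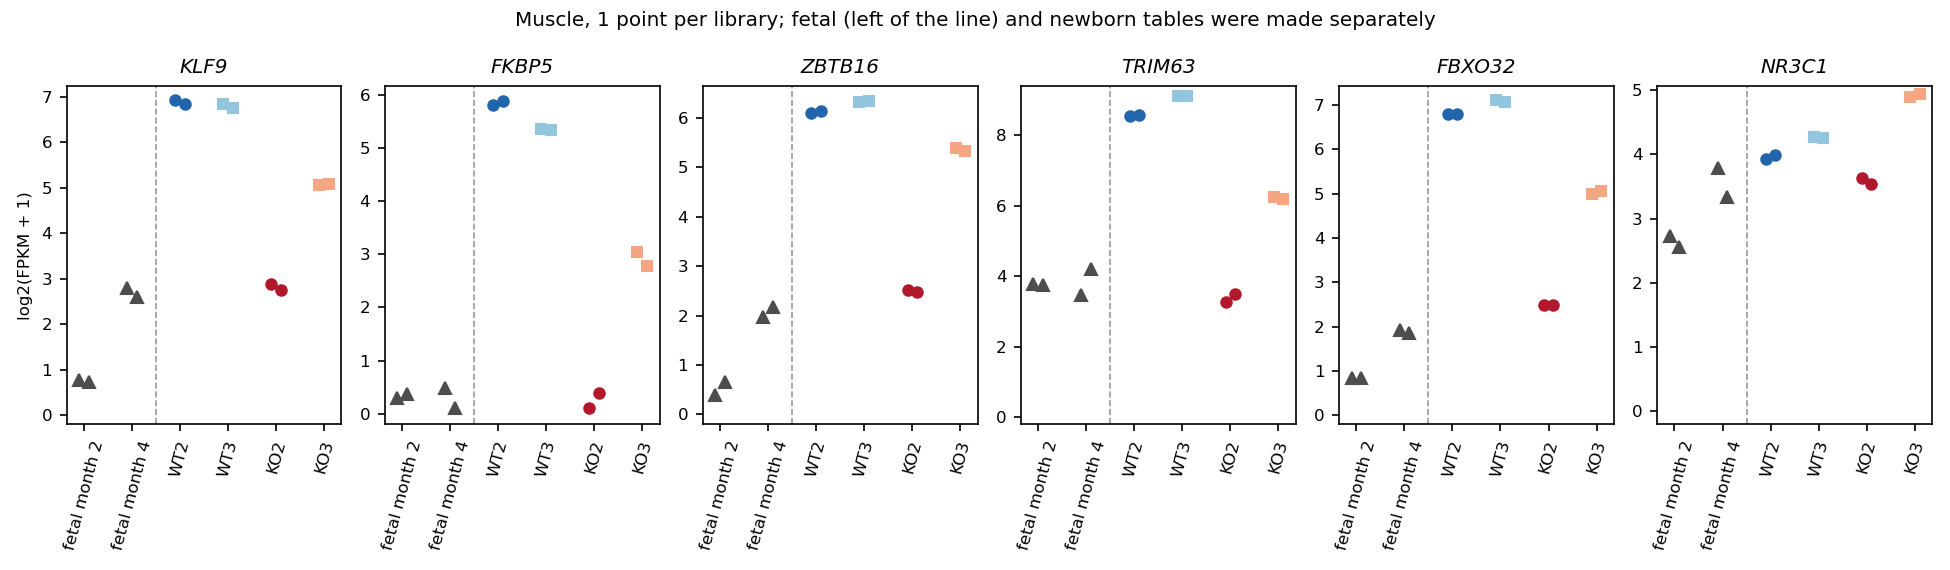
Level of 6 genes in muscle as log2(FPKM + 1), 1 point per library, in wild-type fetuses at months 2 and 4 and in the 4 newborns. The fetal and newborn values come from separately made tables and were not tested against each other. KO2 lies beside the month 4 values for KLF9, FKBP5, ZBTB16 and TRIM63, while WT newborns lie far above.

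Set side by side with newborn muscle, the month 4 levels of 5 genes were far below those of WT newborns. KLF9 was at 5.46 FPKM at month 4 as the mean, 6.02 in KO2, 32.6 in KO3 and 117 and 110 in WT. FKBP5 was at 0.239, 0.188, 6.59, 56.3 and 39.7 in the same order, and TRIM63 at 13.7, 9.44, 73.2, 375 and 547. FBXO32 was at 2.72, 4.64, 31.6, 110 and 135, and ZBTB16 at 3.22, 4.66, 40.2, 68.2 and 79.7. For these 5 genes, chosen after their values were seen, KO2 was close to the month 4 level, and KO3 lay between it and WT. The other 5 genes differed from this in part. SGK1 was at 18.1 at month 4, 2.38 in KO2, 14.5 in KO3 and 32.9 and 19.3 in WT, so that both KO animals were below the fetal level. TSC22D3 was at 47.3 at month 4, 29.9 in KO2, 157 in KO3 and 204 and 141 in WT, so that KO2 was below the fetal level and KO3 above WT3. PER1 was at 7.91, 7.89, 49.4, 92 and 50.2 in the same order, with KO2 beside month 4 but KO3 level with WT3. HSD11B1 was at 0.168, 0.178, 0.401, 0.293 and 1.12. NR3C1 was at 11 at month 4, 11 in KO2, 29.2 in KO3 and 14.5 and 18.2 in WT. The fetal and newborn tables were normalised apart, and no test was made across them.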

How the data were processed

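RNA from cynomolgus monkey tissues was extracted with TRIzol and RNeasy columns, and TruSeq RNA libraries from 1.5 µg of total RNA were read on an Illumina HiSeq instrument, per the labels' protocols. Tools named in the submitters' processing notes are Cufflinks 2.0.2, HISAT 0.1.6 and CASAVA, without their roles. The sources used here give no build, annotation or strand setting, so reads of overlapping or antisense genes cannot be told apart. Values are FPKM as deposited by the authors, in a newborn and a fetal table of 28141 genes each. FPKM keeps no read total, so depth is unknown. Values under 0.1 FPKM gave only a rough relative depth of an animal's 2 libraries, from their most frequent ratio, at most 1.93-fold. The narrow range around that ratio held 8.0% to 37.1% of these values. FPKM totals ran from 333919 to 587030 in newborn and from 311092 to 553069 in fetal libraries. LOC identifiers were given current RefSeq symbols where one existed, for 721 of 11294, for names only.

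Titles naming KO2, KO3, WT2 and WT3 were read as 4 animals and the last number as a repeat library. The log2(FPKM + 1) values of repeats were averaged (median difference between repeats 0.082 over the 10 genes). No pair of libraries was identical. Each comparison was fitted with limma 3.58.1 in R 4.3.3 (lmFit, eBayes with trend) on genes with a mean of 1 FPKM or more, adjusted by Benjamini-Hochberg over all genes tested, at 0.05. The script was tested on simulated data. A log2 change understates the change of low genes. In brain, thymus, liver, lung and the mean of 7 tissues the median of all genes was below 0 by over 0.1, and log2 changes printed for single genes there are relative to it (except ranges over left-out animals), while the p-value tests the change before this subtraction. The all-gene medians of fetal muscle (0.16) and of muscle against the other 6 tissues (0.12) were not subtracted. Fetal and newborn tables were not tested against each other.

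All 10 genes were examined in every comparison and tested where their level allowed. Of the other lists, up to 4 members with the smallest p past the threshold in muscle and in the mean of 7 tissues were named, and up to 5 genes most correlated with KLF9, FKBP5, TRIM63 and NR3C1. The members and lists were chosen with earlier results of these data known. Alternatives tried were no level filter, a pseudocount of 0.1, quantile normalisation, a replicate block, 1 fit of all 7 tissues and leaving out each animal or library.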

Additional observations from a re-analysis of the deposited data

Results flagged for a closer look

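In groups of 4 libraries (2 animals with 2 libraries each), 1 library far from the other 3 was looked for in 140 groups, and 2 were found. The rule flags about 1 in 20 groups of 4 independent values. An animal's 2 libraries are repeats, so that rate does not apply here and no chance rate is given. FKBP5 in KO brain had a gap of 0.889 of the group's range, and ZBTB16 in WT brain one of 0.865.

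Several genes were higher in all KO libraries of a tissue and lower in all KO libraries of another, and the differences between these tissues were not tested one by one. Of the genes tested, 1 of 7 was higher in all KO libraries in thymus (9.81% of all genes tested). The counts were 1 of 9 in liver (11.4%), 1 of 9 in lung (8.04%), 2 of 9 in kidney (17.1%) and 0 of 9 in heart (12.6%). The values below are the fold of KO over WT, as FPKM means, in the tissue where KO was higher. PER1 was 1.36-fold higher in thymus and lower in heart. FBXO32 was 4.04-fold higher in liver and 3.02-fold higher in lung, and lower in muscle. NR3C1 was 1.46-fold higher in kidney and lower in thymus. HSD11B1 was 5.15-fold higher in heart and 2.86-fold higher in kidney, and lower in liver. None of the increases tested by limma was called, HSD11B1 in heart was too low to test, and the 5.15-fold, 4.04-fold and 2.86-fold values start from WT levels under 1 FPKM.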

How the results depend on the processing

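The 17 changes of the 10 genes that were called kept their direction in all 145 alternative fits, and stayed past the threshold in 99 of them. Without a level filter 0 genes were called in muscle, heart, kidney and the mean of 7 tissues, and 1 in fetal muscle, and with quantile normalisation 0 in muscle, heart and the mean, and the cause was not tested. A pseudocount of 0.1 gave 4 in muscle, 0 in heart, 1 in the mean and 1 for muscle against heart. With 1 fit of all 7 tissues 4 genes were called in muscle, and 1 gene was called in brain, 1 in lung and 1 in kidney. The main fits did not pair samples by the numbers 2 and 3 of the animals or by the numbers of the fetal libraries. Deviations of same-numbered samples correlated at −0.10 to 0.09 in the newborn tissues, at −0.23 in fetal brain and at 0.08 in fetal muscle. With 2 animals or libraries per group, these values cannot exclude a pairing. With the number as a replicate block, 3 genes were called in heart, 2 for muscle against the other 6 tissues, 4 in muscle and 7 in fetal muscle. The crossed pairing of the fetal brain numbers, chosen after seeing the data, called 0 of the 8 genes. With 1 animal or library left out, the count was 2 to 8 in muscle, 0 to 5 in brain, 0 to 3 in thymus, 0 to 1 in liver, 0 to 5 in heart, 0 to 6 in lung, 1 to 6 in kidney, 1 to 7 in the mean, 2 to 3 for muscle against the other 6 tissues, 1 to 2 for muscle against heart, 0 to 1 in fetal brain and 4 to 7 in fetal muscle. Each such fit assumes that the lone animal or library varies like the others. The share of all genes called in the same fits is not given here. These counts therefore show how far the calls depend on single animals or libraries, and are not a result about these genes. Without KO2 some changes that were not called turned positive, and the ranges over the animals left out, with no median of all genes subtracted, were −1.66 to 0.23 for ZBTB16 in thymus, −2.08 to 0.22 for SGK1 in heart, −2.72 to 0.23 for TSC22D3, −2.46 to 0.67 for PER1 and −3.65 to 0.62 for ZBTB16 in lung, −1.07 to 0.089 for TSC22D3 and −1.72 to 0.012 for PER1 in kidney, −1.60 to 0.11 for PER1 in the mean, and −2.46 to 0.22 for the median of the 9 genes in lung. Depth is unknown, so the counting error of levels near 0 cannot be given. FKBP5 in KO2 muscle is such a level, with 0.0733 and 0.302 FPKM in the 2 libraries.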
